A study of Homo sapiens with 10 samples.

Results

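The chromatin and MYC-family binding of 6 genes of nucleotide and polyamine synthesis were examined in RPMI-8402, an established human cell line of T-cell acute lymphoblastic leukaemia. The genes are CAD, ODC1, PPAT, PAICS, NME1 and TYMS. They were chosen by position, as all listed peaks that touch 5 windows on hg19, since PPAT and PAICS share a promoter and a window. The windows ran from 27.435 to 27.472 Mb on chromosome 2 for CAD, from 10.575 to 10.594 Mb on chromosome 2 for ODC1, and from 57.254 to 57.333 Mb on chromosome 4 for PPAT and PAICS. Those of NME1 and TYMS ran from 49.226 to 49.245 Mb on chromosome 17 and from 0.652 to 0.679 Mb on chromosome 18. They held 38 of the 121294 peaks of 6 lists, of which 30 lay wholly inside a window. By list these were 2 of 895 MYCN peaks, 5 of 9498 and 7 of 18018 MYC peaks, 12 of 13852 H3K4me3 regions, 10 of 39528 H3K27ac regions and 2 of 39503 H3K4me1 regions.

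The lists come from CUT&RUN, in which an antibody in permeabilised cells guides a nuclease that frees the DNA next to the bound protein or mark. All libraries were made from cultures of the same line, for which the labels name no treatment or genetic change. MYCN was profiled in set A, MYC in sets C and D, H3K27ac and H3K4me1 in set C and H3K4me3 in set B, and 4 control IgG libraries, 1 a set, complete the 10 libraries. Each target has 1 list apart from MYC, whose 2 lists come from different peak callers while their headers name a common signal track, so that they cannot be counted as independent replicates. As the control of the set D MYC library the labels name that library itself, where the other targets name the IgG of their set, so what the set D peaks were called against is not known. The lists give positions without heights or read counts. The depth is therefore unknown, a gene without a listed peak is not shown to lack the protein, and no comparison below carries a test.

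MYC and MYCN are related transcription factors that bind the hexamer CACGTG, called the E-box, together with MAX, and MYC is known for driving the building of nucleotides, polyamines and ribosomes in dividing cells. The purine pathway starts with PPAT, which sets the first amino group on phosphoribosyl pyrophosphate, and PAICS carries out later steps of the ring. The pyrimidine pathway starts with CAD, a large protein that joins the first enzymes of the route, TYMS makes thymidylate for DNA, and NME1 is a kinase that turns nucleoside diphosphates into triphosphates. ODC1 makes putrescine, from which the longer polyamines are built. H3K4me3 marks promoters in use, H3K27ac active promoters and enhancers, and H3K4me1 mainly enhancers and promoter flanks.

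The promoter sequences of ODC1, PPAT and NME1 are shown because they hold E-box letters, from 250 bases before to 50 after the annotated start in RefSeq on GRCh38.p14. Capitals mark CACGTG or CACGCG, a variant of the E-box. These positions are on another build than the peaks, so no motif was placed inside a peak.
ODC1, main start (chr2:10448278-10448577, minus strand): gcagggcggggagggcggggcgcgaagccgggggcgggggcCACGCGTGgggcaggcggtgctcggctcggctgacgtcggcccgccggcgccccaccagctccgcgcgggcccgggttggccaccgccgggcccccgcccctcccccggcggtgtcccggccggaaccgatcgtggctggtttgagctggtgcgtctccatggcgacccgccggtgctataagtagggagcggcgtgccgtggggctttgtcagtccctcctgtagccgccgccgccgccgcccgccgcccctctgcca
ODC1, start inside the gene (chr2:10447963-10448262, minus strand): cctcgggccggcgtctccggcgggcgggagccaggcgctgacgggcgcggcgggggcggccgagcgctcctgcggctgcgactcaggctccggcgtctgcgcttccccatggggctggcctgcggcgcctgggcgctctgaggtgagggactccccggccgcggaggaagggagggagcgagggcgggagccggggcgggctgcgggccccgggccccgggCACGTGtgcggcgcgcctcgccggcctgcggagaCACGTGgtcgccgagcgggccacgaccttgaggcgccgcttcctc
PPAT, shared with PAICS on the other strand (chr4:56435566-56435865, minus strand): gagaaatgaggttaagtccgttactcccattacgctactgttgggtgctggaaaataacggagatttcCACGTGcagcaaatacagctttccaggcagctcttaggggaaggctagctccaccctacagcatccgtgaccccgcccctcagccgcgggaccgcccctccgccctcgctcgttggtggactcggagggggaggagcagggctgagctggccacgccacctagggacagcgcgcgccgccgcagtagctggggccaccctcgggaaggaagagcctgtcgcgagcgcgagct
NME1 (chr17:51153309-51153608, plus strand): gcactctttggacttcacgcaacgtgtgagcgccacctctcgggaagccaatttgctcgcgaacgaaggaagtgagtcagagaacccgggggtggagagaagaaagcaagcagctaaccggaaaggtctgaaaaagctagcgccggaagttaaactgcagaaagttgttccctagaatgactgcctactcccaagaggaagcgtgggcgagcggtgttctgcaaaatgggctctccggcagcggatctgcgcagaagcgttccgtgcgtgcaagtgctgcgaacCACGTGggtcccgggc

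The motifs searched, on both strands, in these windows of 300 bases were the E-box CACGTG, its variant CACGCG and the related CATGTG. The E-box was in the promoters of 4 of the 6 genes (ODC1, PPAT, PAICS and NME1), against 8.77% of the 27305 genes in the promoter table. PPAT and PAICS are both counted for 1 shared copy. By entry it was in 4 of the 9 entries of the members, against 7.26% of 35116 entries, and no difference was tested. The start of ODC1 that lies inside the gene had 2 copies, with their first bases at -29 and 6 relative to that start. In PPAT the copy began at -182, and the entry of PAICS on the opposite strand, which shares 236 bases with it, held the same copy at 41. A further entry of PAICS lies beyond that one, from 56436010 to 56436309 on the plus strand. It shares no bases with the entry of PPAT and held none of the motifs. In NME1 it began at 35, just after the start of transcription. The main start of ODC1 held CACGCG at -209, which overlaps its own reverse complement at -207. CACGCG was in 1 of the 6 genes, against 13.5% of all genes. CATGTG was in 1 of the 6, an entry of PAICS whose start lies outside the shared promoter, against 13.4%. None of the 3 motifs was in the windows of CAD and TYMS, which says only that these letters are not in those 300 bases.

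All 5 promoters held H3K27ac and MYC of set D and none held H3K4me1, each the usual state of wide H3K4me3 regions. They differed in MYC of set C and in MYCN. Promoters were taken as the H3K4me3 regions of the windows, and neighbouring genes were told from the members by order and spacing of start sites in RefSeq. The RNAs TYMSOS and ODC1-DT start 0.638 kb from TYMS and 1.40 kb from ODC1 on the other strand, so these promoters cannot be given to the members alone. H3K27ac overlapped 5 of the 5 promoters, against 66.2% of all 13852 H3K4me3 regions. MYC of set D also overlapped 5 of 5, against 72.3%. MYC of set C overlapped 4 of 5, all but TYMS, against 47.9%, and the promoters with MYC in both lists were thus 4 of 5, against 43.4%. MYCN overlapped 1 of 5, the promoter of PPAT and PAICS, against 5.10%. H3K4me1 overlapped 0 of 5, against 14.4%. A wide region meets a peak more easily, and among the 6171 H3K4me3 regions of at least 1466 bp, the width of the larger ODC1 region, the shares were 84.6% for H3K27ac, 90.4% for MYC of set D, 64.2% for MYC of set C, 61.6% for MYC in both lists, 8.18% for MYCN and 11.7% for H3K4me1. With 5 promoters no difference from these shares was tested.

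**Figure D1:**
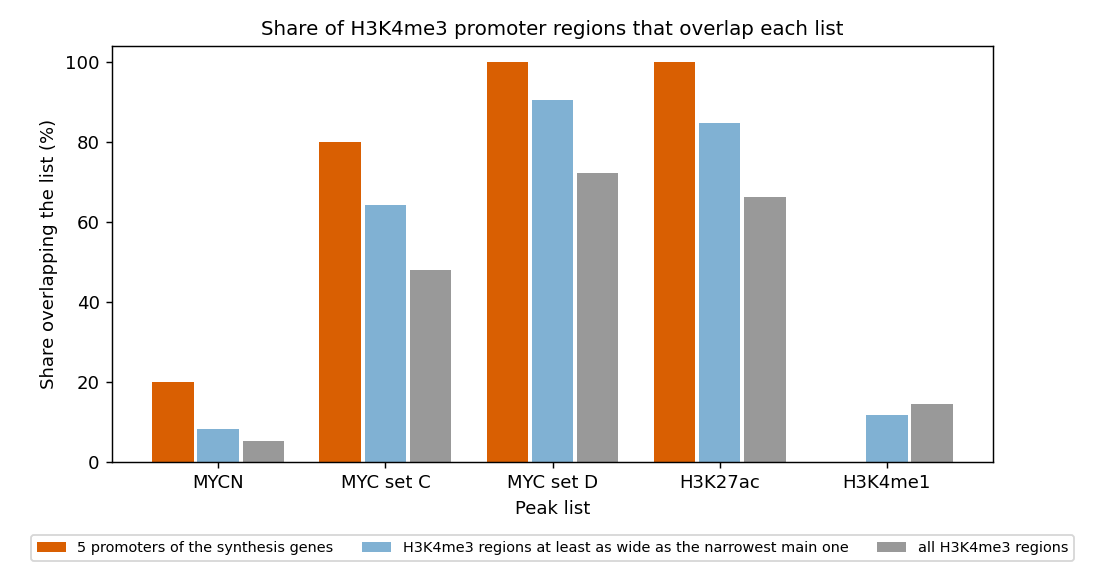
Share (%) of promoter regions that overlap each of 5 peak lists. Orange bars are the 5 promoters of the synthesis genes, blue bars the 6171 H3K4me3 regions of at least 1466 bp and grey bars all 13852 H3K4me3 regions. MYC of set D and H3K27ac met 5 of the 5 promoters, and the blue bars of these lists stand at 90.4% and 84.6%.

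CAD, ODC1 and NME1 had the commonest make-up with MYC in both lists, that is H3K4me3, H3K27ac and MYC without MYCN or H3K4me1. It was found at 26.9% of all H3K4me3 regions and at 42.4% of those of at least 1466 bp. PPAT and PAICS had MYC in both lists with H3K27ac and MYCN, found at 3.71% and 6.45%. TYMS had MYC in set D without set C, found at 28.9% of all regions and 28.8% of the wider ones. The shares for TYMS set no condition on H3K27ac, H3K4me1 or MYCN, so they cannot be ranked against those for CAD, ODC1 and NME1. Those for PPAT and PAICS set none on H3K4me1.

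The shared promoter of the purine genes PPAT and PAICS carried the widest H3K4me3 region of the group and its only MYCN peak. The H3K4me3 region ran on chromosome 4 from 57299813 to 57304455 (4643 bp) and was number 105 from the widest of 13852. MYC of set C covered 3031 bp of it, from 57300991 to 57304021, and was as wide as or wider than 98.2% of its list. The MYC peak of set D ran from 57301544 to 57302668 (1125 bp), at or above 97.4% of its list in width. MYC was thus broad here in both lists. H3K27ac ran from 57301205 to 57302605 (1401 bp). The MYCN peak lay inside all of these, from 57302383 to 57302603, and at 221 bp it was close to the median of its list, 222 bp.

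Whether MYC and MYCN shared a position within this promoter depended on the measure and the MYC list. The centres of the MYCN peak and of the MYC region of set C lay 359 and 372 bp from the H3K4me3 centre on the PAICS side, and that of MYC of set D 28 bp on the PPAT side. In the list of set C each region names a shorter stretch, which SEACR, the caller of that list, uses for the place of highest signal, with no height given. At PPAT and PAICS this stretch ran from 57301954 to 57302053, and the MYCN peak began 329 bp beyond its end, on the PAICS side. The MYCN peak ended 2 bp before the edge of H3K27ac and 65 bp before the edge of MYC of set D, so that it sat at the PAICS-side rim of the acetylated part. The region of set C reached 1418 bp farther than the MYCN peak. MYC of set D covered 24.2% of the H3K4me3 region, against a median of 34.0% over the 10018 H3K4me3 regions with that list, and H3K27ac covered 30.2%, against a median of 43.8%. For MYC of set C the share was 65.3%, against a median of 62.9%. These medians are over regions of all widths, and the median H3K4me3 region was 1341 bp wide. The low shares thus do not mean narrow peaks, since in bp H3K27ac here was at or above 92.8% of its list and MYC of set D at or above 97.4%. There were 106 H3K4me3 regions of at least this width, this one included. Of these, 85 (80.2%) held MYC in both lists and 10 (9.43%) held MYCN.

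**Figure D2:**
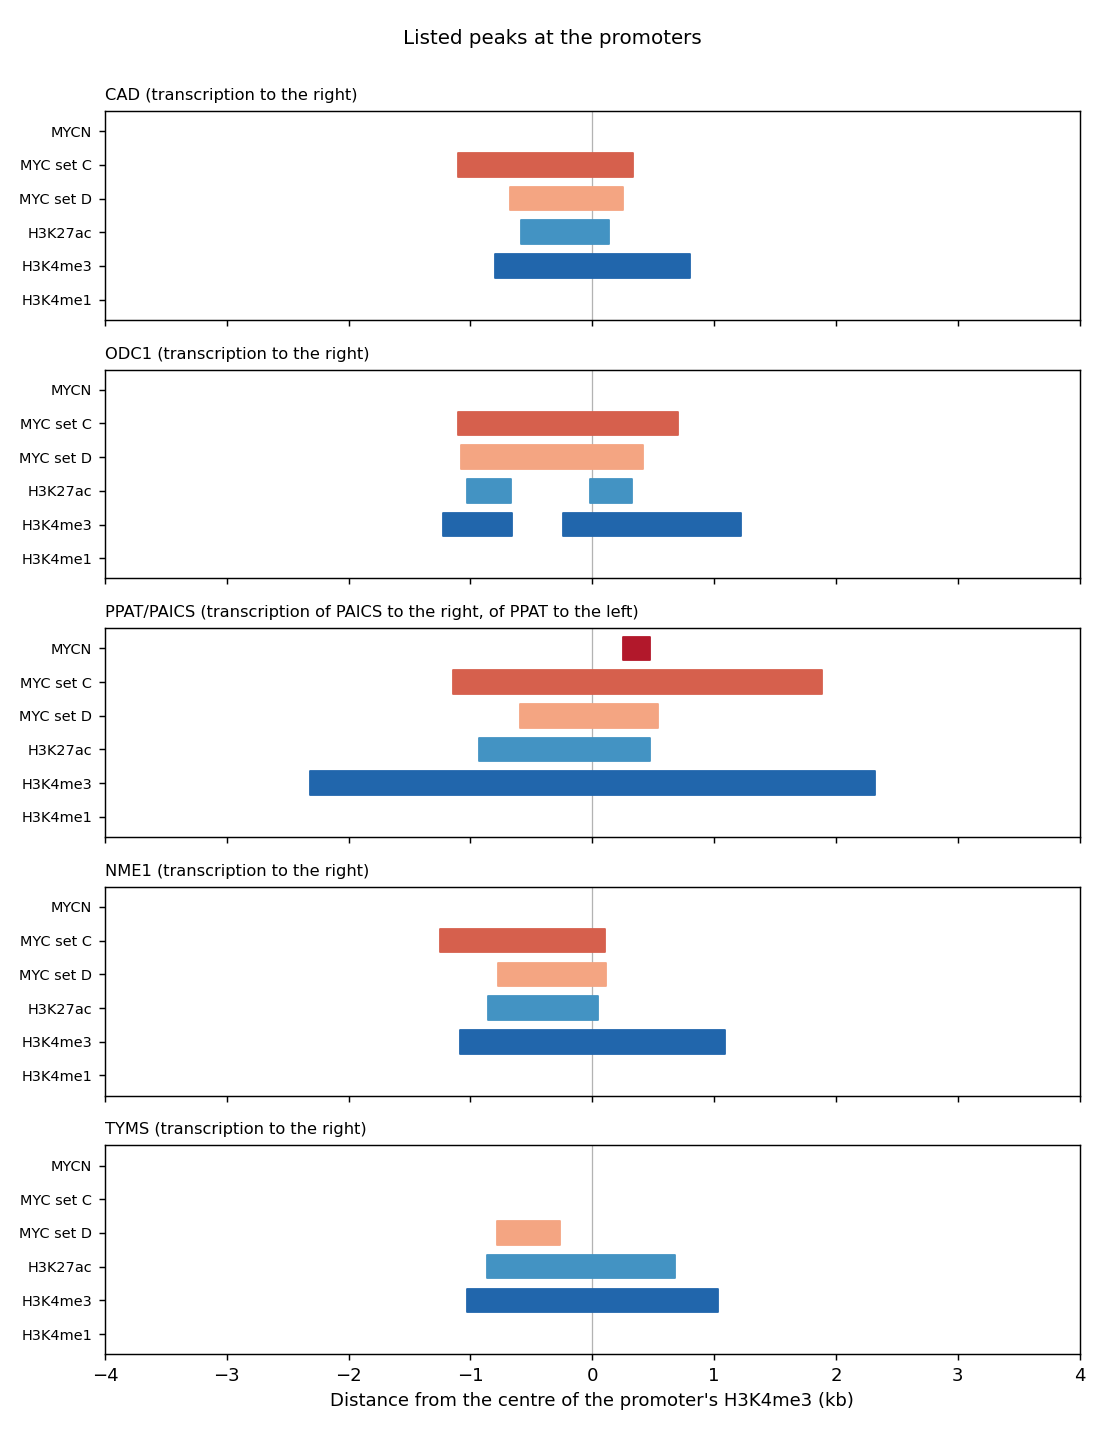
Listed peaks at the 5 promoters, drawn as bars by list, against the distance in kb from the centre of the promoter's H3K4me3. Transcription runs to the right, and for the shared promoter that of PAICS does. Only PPAT and PAICS have a MYCN bar, TYMS has no bar for MYC of set C, and at ODC1 the MYC bars cross the gap of 418 bp between the H3K4me3 regions.

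CAD, which opens the pyrimidine pathway, had MYC in both lists at a promoter of middling width. Its H3K4me3 region ran on chromosome 2 from 27439892 to 27441486 (1595 bp), as wide as or wider than 60.9% of the list. MYC of set C ran from 27439590 to 27441025 (1436 bp), with a highest stretch of 426 bp from 27440190 to 27440615. It began before the H3K4me3 region did, on its upstream side. The MYC peak of set D ran from 27440010 to 27440939 (930 bp) and was at or above 93.4% of its list. It covered 58.3% of the H3K4me3 region, the largest share among the 5 promoters. H3K27ac ran from 27440100 to 27440823 (724 bp) and lay within both MYC regions.

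The MYCN peak in the CAD window was not at the CAD promoter. It ran from 27434807 to 27435145 and straddled the window's edge, with 145 of its 339 bp inside. It lay in another H3K4me3 region, 2449 bp wide, whose centre is 5.40 kb before that of CAD. In RefSeq the starts of ATRAID and SLC5A6 lie 5.33 and 4.58 kb before the start of CAD, so this region was taken as their promoter. The MYCN peak ended 4746 bp short of the H3K4me3 region of CAD. MYC of both lists was listed there too, at 1619 bp in set C and 1092 bp in set D, and both were wider than at CAD. The highest stretch of set C at this neighbour, from 27435064 to 27435131, lay inside the MYCN peak, whereas at PPAT and PAICS it lay outside it. Over 6245 set C regions in H3K4me3 with such a stretch, it was inside a MYCN peak in 365 (5.84%). That share also counts regions without any MYCN peak, so it does not say which of the outcomes is usual where MYCN is listed.

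TYMS, the thymidylate synthase gene, was the member whose promoter lacked MYC in set C. Its H3K4me3 region ran on chromosome 18 from 657076 to 659130 (2055 bp). MYC was listed in set D alone, from 657317 to 657836 (520 bp), and covered 25.3% of the H3K4me3 region. Set D peaks in H3K4me3 had a median width of 438 bp at the 4135 sites absent from set C, compared with 618 bp at the 5948 shared sites, and the TYMS peak lay between these medians. The nearest MYC region of set C was 22.7 kb away and the nearest MYCN peak 9250 kb away, and 98.1% of H3K4me3 regions had a MYCN peak at that distance or nearer. H3K27ac was, in contrast, the widest among the 5 promoters. It ran from 657235 to 658781 (1547 bp), as wide as or wider than 95.2% of its list, and covered 75.3% of the H3K4me3 region, against a median of 43.8%. TYMS thus combined the widest acetylation with the narrowest MYC peak of set D among the 5 promoters, and the reason was not tested.

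NME1, the nucleoside diphosphate kinase gene, resembled CAD. Its H3K4me3 region ran on chromosome 17 from 49230123 to 49232302 (2180 bp). MYC of set C ran from 49229959 to 49231312 (1354 bp) and that of set D from 49230440 to 49231327 (888 bp), at or above 66.8% and 92.0% of their lists in width. The highest stretch of set C was only 4 bp, from 49230770 to 49230773. H3K27ac ran from 49230355 to 49231255 (901 bp) and covered 41.3% of the H3K4me3 region. Both MYC peaks and H3K27ac stopped close to the centre of the H3K4me3 region, at 100, 115 and 43 bp past it, so that the rest of H3K4me3, toward the gene body, held no other listed peak.

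ODC1, the polyamine gene, had a split promoter and the widest MYC peak of set D in the group. H3K4me3 was listed as 2 regions on chromosome 2, from 10587013 to 10588478 (1466 bp) on the side of the gene and from 10588897 to 10589460 (564 bp) upstream, with 418 bp between them. H3K27ac was split in the same way, at 345 bp from 10587915 to 10588259 and 362 bp from 10588906 to 10589267, both narrower than the median of its list, 551 bp. MYC crossed the gap without a break. In set D it ran from 10587825 to 10589314 (1490 bp), number 61 from the widest of 18018, and in set C from 10587534 to 10589339 (1806 bp). The highest stretch of set C, from 10588650 to 10588676 (27 bp), lay inside the gap, outside both H3K4me3 and H3K27ac. At the other 3 promoters with a set C region it lay inside both marks. Over 6245 set C regions in H3K4me3 with such a stretch, it was inside H3K4me3 in 91.9% and inside H3K27ac in 63.9%. These shares include regions that bridge no gap. Set C regions that bridge 2 H3K4me3 regions, as at ODC1, were not counted apart, so how rare a stretch in the gap is among them is not known. Of the 1874 pairs of H3K4me3 regions at most 1 kb apart, 375 (20.0%) had a single set D peak on both regions and 269 (14.4%) had that in both MYC lists, as at ODC1.

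**Figure D3:**
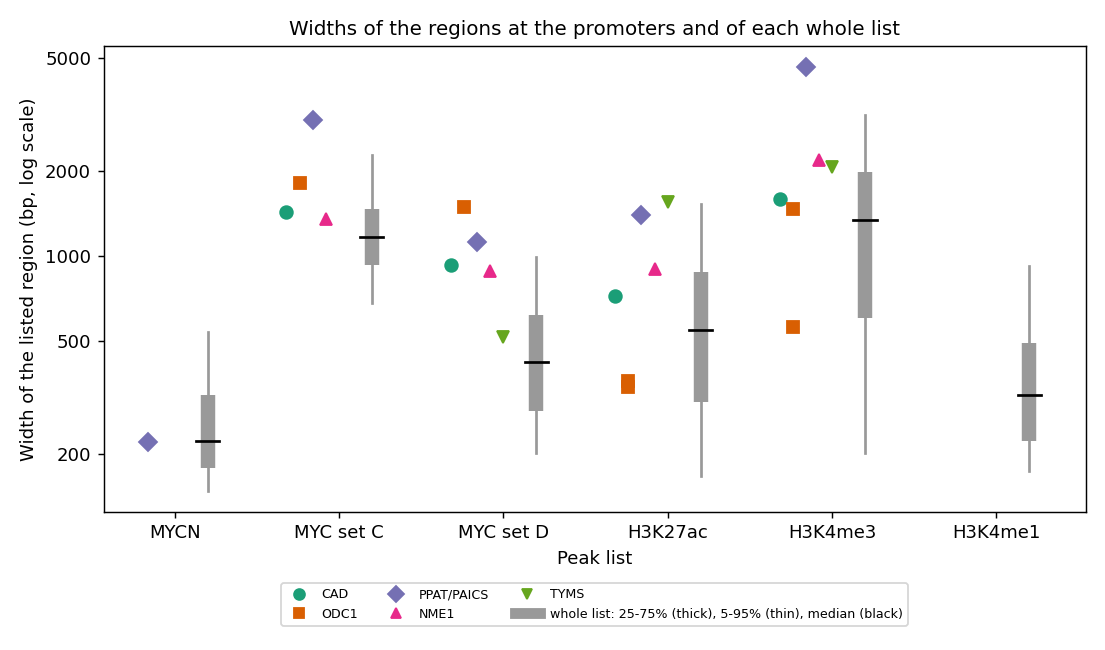
Width in bp (log scale) of every listed region at the 5 promoters, as coloured symbols by gene, beside the whole list in grey with the median in black. Among set D peaks ODC1 (1490 bp) and PPAT and PAICS (1125 bp) stand highest and TYMS (520 bp) lowest, while for H3K27ac TYMS (1547 bp) is highest and the ODC1 regions (345 and 362 bp) are lowest.

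Widths of the MYC peak of set D at the promoters ordered the genes as ODC1 (1490 bp), PPAT and PAICS (1125 bp), CAD (930 bp), NME1 (888 bp) and TYMS (520 bp). The median over the 10083 set D peaks in H3K4me3 was 540 bp, which 4 of the 5 exceeded. H3K27ac gave another order, with TYMS (1547 bp) and PPAT and PAICS (1401 bp) first, then NME1 (901 bp) and CAD (724 bp), and the 2 short regions of ODC1 last. Widths depend on depth and caller as well as on the site, and there is no replicate against which to judge the steps between neighbours in these orders.

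MYC lay toward the upstream side of H3K4me3 at the 4 promoters that serve a single member, and H3K27ac did so at CAD, NME1 and TYMS. Upstream is named for the member, though at ODC1 and TYMS an RNA also starts nearby on the other strand. The centre of the set D peak was 214 bp upstream of the H3K4me3 centre at CAD, 333 bp at ODC1, 329 bp at NME1 and 526 bp at TYMS. Set C gave 381 bp at CAD, 200 bp at ODC1 and 577 bp at NME1, also upstream. For ODC1 the centre is that of both H3K4me3 regions together. At the shared promoter of PPAT and PAICS, transcribed both ways, the lists differed, with the set D centre 28 bp from the H3K4me3 centre on the PPAT side and the set C centre 372 bp on the PAICS side. Over the 9597 H3K4me3 regions with 1 set D peak the median distance between centres was 268 bp (quartiles 125 and 450). The set D distances at CAD and NME1 lay within these quartiles, and those at PPAT and PAICS and at TYMS lay outside. The distance at ODC1 was measured from the joint centre of its H3K4me3 regions, so it cannot be compared with quartiles over single regions. The direction over all regions was not analysed here.

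Outside the promoters the windows held few listed peaks. Stretches without a peak were not measured elsewhere, so this is not shown to be particular to these genes. No listed peak touched the last 30.5 kb of the CAD window, from 27441487 to 27472000, or 19.9 kb of the TYMS window from 659131 to 679000. In the ODC1 window 12.0 kb on the gene's side, from 10575001 to 10587012, held no peak. Between the promoters of NME1 and NME2 there was an empty stretch of 10.9 kb. In the PPAT and PAICS window the longest was 24.1 kb, within the span from 57308248 to 57332375.

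Sites with H3K4me1, the mark found mainly at enhancers, numbered 2. Upstream of ODC1 an H3K4me1 region from 10593242 to 10593909 (668 bp) shared 556 bp with an H3K27ac region of 864 bp. It lay 3.78 kb from the H3K4me3 of ODC1, against a median of 9.18 kb from any H3K4me3 region to the nearest H3K4me1. On the PPAT side of the shared promoter an H3K4me1 region of 194 bp, from 57276530 to 57276723, shared 169 bp with an H3K27ac region of 213 bp. Both were narrow, since only 14.6% of H3K4me1 and 14.5% of H3K27ac regions were of that width or less. RefSeq also lists a start of PAICS 25.2 kb before the one whose entry shares bases with that of PPAT on GRCh38.p14. The centre of this site lay 25.5 kb before that of the shared H3K4me3 region on hg19, so the site may lie at that start. Neither site held a listed MYC or MYCN peak. The shares of all H3K4me1 regions that hold MYC, MYCN or H3K27ac were not counted. Neither the absence of MYC and MYCN nor the overlap with H3K27ac is thus shown to be particular to these sites. The nearest H3K4me1 was 46.1 kb from CAD, 33.1 kb from NME1, 14.1 kb from TYMS and 23.1 kb from PPAT and PAICS, all beyond that median.

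**Figure D4:**
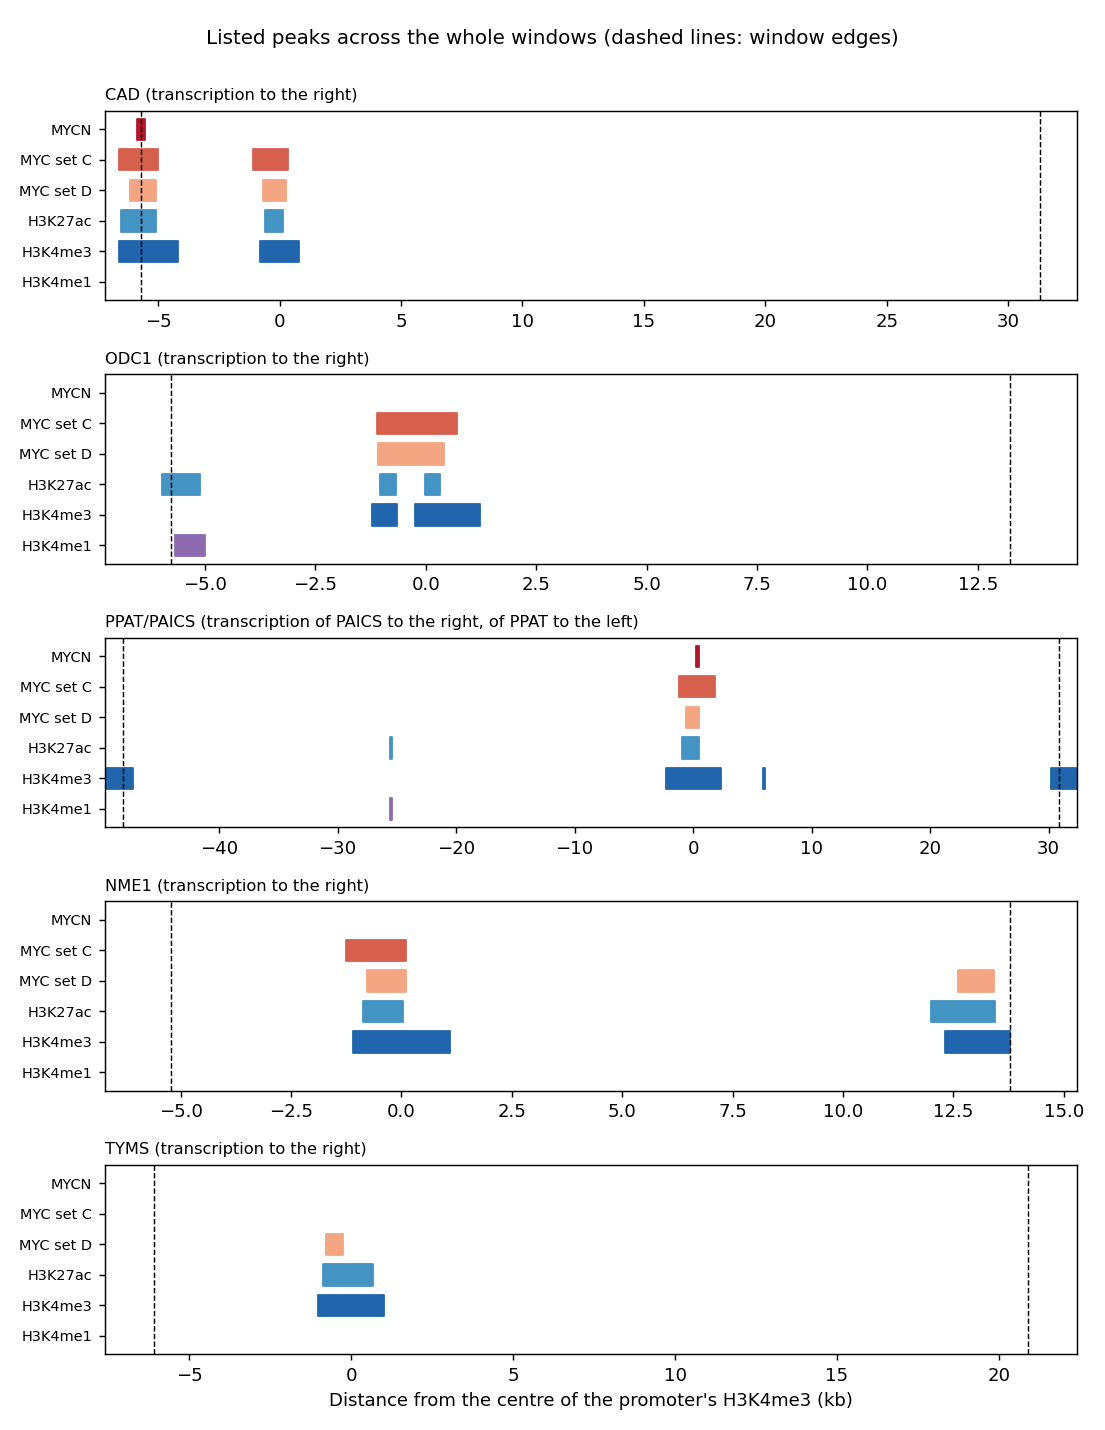
Listed peaks across the whole windows, by list, against the distance in kb from the centre of the promoter's H3K4me3, with dashed lines at the window edges. Transcription of the member runs to the right, and for the shared promoter that of PAICS does. The MYCN peak of the CAD window lies on its edge at the promoter of SLC5A6 and ATRAID, and the H3K4me1 regions upstream of ODC1 and in the body of PPAT lie apart from H3K4me3.

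The 5 windows together were 181 kb long. H3K4me3 covered 9.43% of their bases, against 0.668% of the chromosomes between the first and last listed peak. MYC of set C covered 4.59% of the windows, against 0.417%, and MYC of set D 3.52%, against 0.297%. For H3K27ac the shares were 4.52% in the windows and 0.877% overall. MYCN covered 0.202%, against 0.00822%, of which the peak at SLC5A6 and ATRAID gave 145 of 366 bases. H3K4me1 alone was not above its overall share, at 0.476% in the windows and 0.540% overall. The windows were placed on genes, and these differences were not tested.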

How the data were processed

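The samples were CUT&RUN libraries of RPMI-8402, and 6 deposited peak lists were used, each tied to its library by the series' records. What the authors deposited is the start and end of each peak, as hg19 coordinates per the submitters' processing notes, with no score in the files. MACS2 and SEACR are the tools named in those notes, without versions. Per the file headers, the MYCN peaks come from cutruntools with all fragments and a q-value under 0.01, those of H3K4me3 from MACS2, those of MYC in set C from paired reads by SEACR with its stringent setting, and those of MYC in set D from MACS2 without read pairing. The H3K27ac and H3K4me1 lists have no header. For aligners and duplicate removal, nothing is given in the sources used here. Lists thus differ in caller and threshold, and ranks and medians of width were taken within a list.

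Peaks on chromosomes 1 to 22 and X were kept, which left out between 0 and 53 regions of a list. Intervals that share at least 1 bp overlap. In the MYC list of set C the name field gave a stretch inside the region for 9482 of the 9498 regions kept, and 16 lacked its end. The members, lists and rules were chosen with earlier results of these data known. Named genes are the 6 members. A wider list of pathway genes was planned, but without hg19 gene positions it was not analysed here. Promoters were assigned by hand from the order of genes in RefSeq on GRCh38.p14, where starts of PPAT and its neighbours AASDH and SRP72 lie 48.1 and 32.0 kb apart and the H3K4me3 centres 48.5 and 31.8 kb, and those of NME1 and NME2 12.0 and 13.0 kb. All 6 members matched the promoter table by symbol, with 9 entries. The IgG libraries were not analysed here. With 1 list a target, no test was planned or made. Overlap counting was checked on simulated intervals, where 400 of 400 planted overlaps were recovered, and 30 of 30 ordered pairs of lists gave the count of bedtools 2.31.1. The scripts ran under Python 3.11.15 with numpy 2.4.6, with scipy 1.17.1 for intervals and with matplotlib 3.10.9 for plots.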

Additional observations from a re-analysis of the deposited data

How the results depend on the processing

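Most counts of the 5 promoters stayed within the limit taken as unchanged, which is a loose limit for such small counts. Counted over the promoters, 29 of 30 alternative values were within 1.5 times the main count, and over the windows 42 of 44. With main counts of 4 or 5 the gain or loss of 1 promoter passes as unchanged. The exceptions concern MYCN. With only the peaks at or above the median width of each list, 0 promoters and 1 window held MYCN, against 1 and 2, because the MYCN peak of PPAT and PAICS is 221 bp wide and the median 222 bp. With only peaks wholly inside the window, a setting chosen after seeing the data, 1 window held MYCN. With the same width limit H3K27ac was at 4 promoters, since both regions of ODC1 are narrow. With the windows widened by 5 kb, MYC of set C and MYC in both lists were each in 5 windows, against 4. The window gained is that of TYMS, through another H3K4me3 region. The promoter of TYMS itself has no set C region within 22.7 kb. With the peak centre inside H3K4me3, MYC of set D was at 4 promoters, against 5, and MYC in both lists at 3, against 4, because the set D centre at ODC1 falls in the gap between its H3K4me3 regions. MYC in at least 1 list was at 5 promoters by set D alone and 4 by set C alone, and the same numbers held for the windows. The shares over all H3K4me3 regions moved more. Among regions of at least 1466 bp they were 8.18% for MYCN, 64.2% for MYC of set C, 90.4% for MYC of set D, 84.6% for H3K27ac, 11.7% for H3K4me1, 61.6% for MYC in both lists and 93.0% for MYC in at least 1. With the peak centre inside H3K4me3 they were 39.9% for MYC of set C, 64.9% for MYC of set D, 58.2% for H3K27ac, 10.8% for H3K4me1, 36.5% for both MYC lists and 68.3% for at least 1. The main shares of the last pair were 43.4% and 76.7%. No paired analysis was possible because the lists give positions only and each target but MYC has 1 library. The 2 MYC lists name a common signal track and cannot serve as independent replicates. The lists hold no read counts, so what depth limits cannot be stated.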

Other observations

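The neighbouring promoters that the windows touched differed in their listing. NME2, a kinase gene next to NME1, had an H3K4me3 region of 1480 bp on chromosome 17 from 49243511 to 49244990, with H3K27ac over 77.4% of it and a MYC peak of set D of 802 bp, but no MYC region of set C within 12.2 kb. AASDH and SRP72, on either side of PPAT and PAICS, had H3K4me3 regions of 2457 and 2451 bp with H3K27ac over 12.4% and 44.6% of them. MYC of set D was listed at both and MYC of set C at neither, the nearest being 46.1 and 28.7 kb away. The promoter of SLC5A6 and ATRAID was the only one of these neighbours with MYC in both lists and MYCN. A small H3K4me3 region of 248 bp, from 57308000 to 57308247 on the PAICS side, held none of the other lists, and neither did one of 180 bp from 57332376 to 57332555 near SRP72.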
